A study of Mus musculus with 8 samples.

Results

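The E2F and retinoblastoma family genes described here are E2f1, E2f2, E2f3, E2f4, E2f5, E2f7 and E2f8, which encode E2F transcription factors, and Rb1, Rbl1 and Rbl2, which encode the pocket proteins pRb, p107 and p130. They were chosen by name: each probe set (transcript cluster) whose single annotated gene symbol was one of these 10 was taken, and the values of a gene with several clusters were averaged. All 10 were measured, on 11 clusters, among 17501 genes with such a symbol. E2f3 had 2 clusters and each of the others had 1. No filter on low values was applied, so all 10 stand in every count below.

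E2F factors bind DNA with a DP partner and control genes for DNA synthesis and entry into S phase. In G0 and G1 the pocket proteins bind E2F factors and hold these genes down, and phosphorylation by cyclin-dependent kinases releases them. E2F1, E2F2 and E2F3 are classed as activators, E2F4 and E2F5 as pocket-protein-dependent repressors, and E2F7 and E2F8 as atypical repressors that need neither a DP partner nor a pocket protein. Several family members are themselves E2F targets, and fibroblasts that lack the pocket proteins are known for escaping culture-induced arrest.

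The study measured RNA from mouse embryonic fibroblasts (MEFs) with and without Smurf2, a HECT-type E3 ubiquitin ligase, on Affymetrix arrays. Its 8 arrays comprised 1 for each combination of genotype (wild-type or Smurf2-/-, called Smurf2-null here), genetic background (C57B6, or a 129SVJ/NIH Black Swiss mixture named mixed BL in the labels) and passage class. C57B6 cultures were taken at passage 7 (early) and 28 (late), and mixed BL cultures at passage 6 (early) and 33 (late). Each C57B6 culture came from 1 embryo, whereas mixed BL cultures were pools, of 3 embryos for Smurf2-null and of 2 for wild-type. The sample descriptions give embryonic day 14.5, and the growth protocol gives day 11.5. All cultures were grown in DMEM with 10% fetal bovine serum, and no treatment is labelled. The labels name no promoter, Cre or clone. The labels do not say whether an early and a late array came from 1 culture, nor whether any group had repeat cultures. Each comparison of genotype, passage class or background was therefore made over 4 arrays against 4 that differ in the other factors. Differences within 1 passage class, genotype or background set 2 arrays against 2, with the error fitted over all 8. Each p-value measures only the spread among these arrays.

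The deposited values are log2 expression values, centred so that each cluster has a median of 0 over the 8 arrays. They give differences between arrays and no level of one gene against another, and no total depth exists for an array; the small number of arrays limits the precision. Smurf2 itself ran from 0.43 to 0.96 on the wild-type arrays and from -1.21 to -0.43 on the Smurf2-null arrays (limma adjusted p = 0.0484), so the genotype labels were borne out by their own gene. The X-linked Xist ran from 1.53 to 3.20 on the wild-type and from -2.07 to -1.53 on the Smurf2-null arrays (adjusted p = 0.0484), and the Y-linked Kdm5d was 2.27 higher on the Smurf2-null arrays (adjusted p = 0.0435), so sex-linked genes separated the same groups as genotype; embryo sex is not labelled, and sex and genotype cannot be told apart here. The late Smurf2-null C57B6 array stood apart from the other 7: its median over 29 G1/S genes was 0.89, against -0.28 to 0.31 elsewhere, and its median over 10 fibroblast markers was -0.64, against -0.15 to 0.08 elsewhere. The fibroblast markers were on average lower late in passage for 10 of 10 genes (median -0.21), with none called, while 57.5% of all genes were higher. Their median difference was -0.81 in Smurf2-null C57B6, 0.03 in wild-type C57B6, -0.18 in Smurf2-null mixed BL and -0.14 in wild-type mixed BL. Only 2 of the 10 kept 1 sign in all 4 pairs. Medians over macrophage, endothelial, epithelial, neural and muscle markers stayed within 0.25 of 0 on each array. Because the values are centred, they do not show which of these markers were near 0 expression, so the labelled cell type could not be checked by level. In such bulk RNA, fewer cells of a type and less RNA per cell cannot be told apart.

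The upstream sequences of Rbl1, E2f3 and E2f7 are shown because these 3 members carry a match to an E2F word before the start and bear on the passage and array differences given further on. The words searched, on both strands, were TTTCCCGC, TTTCGCGC, TTTGCCGC and TTTGGCGC. Sequences are the 250 bases before the gene's start, 5′ to 3′ on the gene's strand, from RefSeq (GRCm38.p6), and capitals mark the match.
Rbl1: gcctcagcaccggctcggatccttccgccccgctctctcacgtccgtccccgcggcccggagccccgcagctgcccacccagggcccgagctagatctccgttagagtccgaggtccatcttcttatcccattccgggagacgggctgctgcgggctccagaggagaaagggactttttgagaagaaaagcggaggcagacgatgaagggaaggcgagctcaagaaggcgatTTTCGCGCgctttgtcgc
E2f3: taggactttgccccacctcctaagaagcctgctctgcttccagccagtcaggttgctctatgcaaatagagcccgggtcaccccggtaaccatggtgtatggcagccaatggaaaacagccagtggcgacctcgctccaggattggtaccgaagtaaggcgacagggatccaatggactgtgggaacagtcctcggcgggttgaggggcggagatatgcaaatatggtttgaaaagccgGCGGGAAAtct
E2f7: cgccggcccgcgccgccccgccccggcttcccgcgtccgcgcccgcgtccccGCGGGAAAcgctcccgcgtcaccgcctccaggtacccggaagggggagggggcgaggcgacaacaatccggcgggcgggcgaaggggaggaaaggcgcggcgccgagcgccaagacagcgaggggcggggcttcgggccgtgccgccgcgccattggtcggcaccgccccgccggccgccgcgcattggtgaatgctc
The Rbl1 sequence lies at chr2:157204535-157204784 on the minus strand, the E2f3 sequence at chr13:29986064-29986313 on the minus strand, and the E2f7 sequence at chr10:110745189-110745438 on the plus strand. The Rbl1 match reads TTTCGCGC and starts 18 bases before the start. The E2f3 and E2f7 matches read TTTCCCGC on the other strand, at 11 and 198 bases before the start. The windows of 7 members were in the table, and 5 of those lay at the gene's outermost start. Of these 5, 3 (E2f3, E2f7 and Rbl1) held a match in the 250 bases before the start, as did 1.86% of 32851 windows of that length. Those windows were not limited to outermost starts. With the bases after the start, in windows of 300 bases, 4 of the 5 held one, E2f2 being the fourth, as did 2.26% of all windows. Rbl2 held none. E2f1 and E2f8 had windows inside the gene, and Rb1, E2f4 and E2f5 had none. A match is a description of letters and was not tested as a binding site.

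The members' largest differences relative to their error were between early and late passage, and Rb1 and Rbl1 differed in opposite directions. Rb1, the gene of pRb, was 0.63 ± 0.14 (SE) lower late than early on the log2 scale, a fold of 1.54. Rbl1, the gene of the related p107, was 0.56 ± 0.18 (SE) higher late, a fold of 1.48. E2f3 was 0.26 ± 0.07 (SE) lower late, and E2f2 0.30 ± 0.11 (SE) higher. None of the 10 members passed the limma test at an adjusted p of 0.05 (adjusted p from 0.142 for Rb1 to 0.812 for E2f8), and only 0.0171% of all 17501 genes passed it. At an unadjusted p of 0.05, 4 of 10 members were past the threshold, against 17.3% of all genes.

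**Figure D1:**
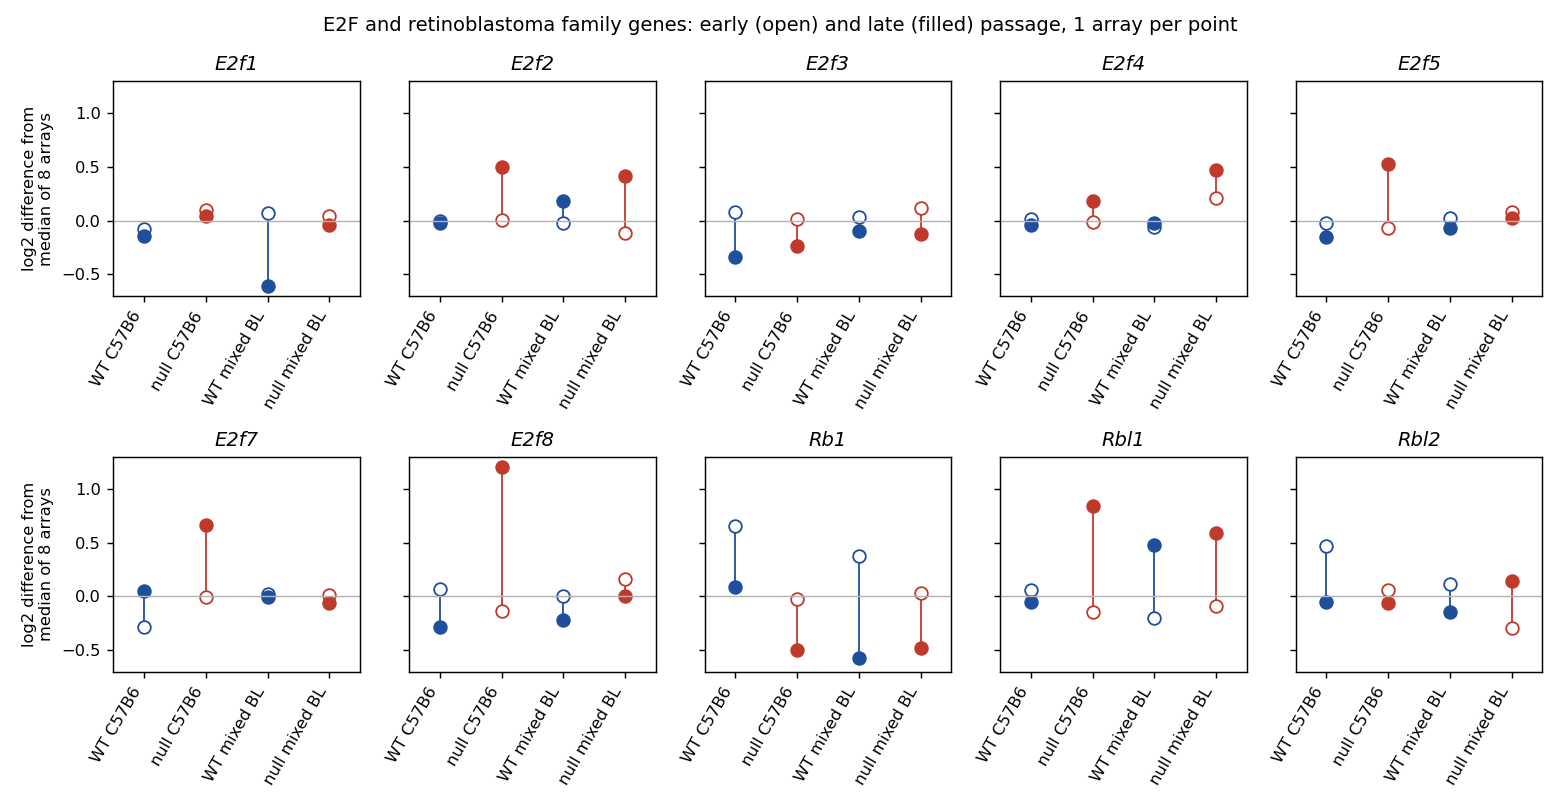
Log2 values of the 10 members on each of the 8 arrays, relative to the gene's median over the arrays, with wild-type and Smurf2-null (null) arrays marked by genotype, background and passage class. Each point is 1 array; E2f8 at 1.21, Rbl1 at 0.84 and E2f7 at 0.66 are highest on the late Smurf2-null C57B6 array.

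Among the pocket proteins, Rb1 stood at 0.66 and 0.37 on the early wild-type C57B6 and mixed BL arrays and at -0.03 and 0.03 on the early Smurf2-null C57B6 and mixed BL arrays. On the late arrays it stood at 0.09 in wild-type C57B6, -0.50 in Smurf2-null C57B6, -0.48 in Smurf2-null mixed BL and -0.58 in wild-type mixed BL. Each late array was below the early array of its own genotype and background, by 0.47 to 0.95, although the early and late values overlapped, since the late wild-type C57B6 array lay above both early Smurf2-null arrays. The early mean was 0.26 ± 0.32 (SD, n = 4) and the late mean -0.37 ± 0.31 (SD, n = 4), and the 95% interval of the difference ran from -0.97 to -0.28.

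Rbl1 stood at -0.20 to 0.06 on the 4 early arrays. Late, it stood at 0.84 in Smurf2-null C57B6, 0.59 in Smurf2-null mixed BL, 0.48 in wild-type mixed BL and -0.06 in wild-type C57B6. It was thus high on 3 of 4 late arrays and at the early level on the wild-type C57B6 array, the one on which its pair differed by -0.11. The late minus early difference had a 95% interval of 0.12 to 1.01 (adjusted p = 0.223). Rbl2, the gene of p130, the pocket protein most tied to quiescence, had no shared direction: its late minus early difference was 0.44 in Smurf2-null mixed BL and -0.52 in wild-type C57B6, and the mean over all pairs was -0.12 ± 0.16 (SE). Its highest value, 0.47, was on the early wild-type C57B6 array and its lowest, -0.29, on the early Smurf2-null mixed BL array.

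**Figure D2:**
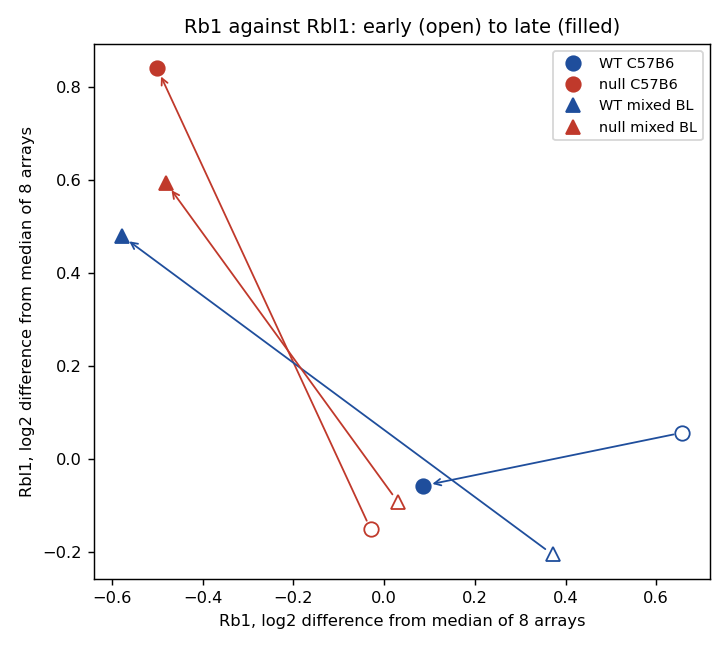
Rb1 against Rbl1 over the 8 arrays, both as log2 values relative to the gene's median, marked by genotype, background and passage class. The arrays with the highest Rbl1 values, 0.84, 0.59 and 0.48, are late arrays with Rb1 at -0.50, -0.48 and -0.58.

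Of the activators, E2f3 was lower late in each of the 4 pairs, by 0.13 to 0.42. Its early arrays held 0.02, 0.03, 0.08 and 0.12, and its late arrays -0.34, -0.23, -0.12 and -0.10, so the groups did not overlap. It was the only member of 10 whose late arrays all lay below its early ones, which held for 4.59% of all genes; no member had all late arrays above the early ones, which held for 5.44%. The interval of the E2f3 difference was -0.42 to -0.10 (adjusted p = 0.161). Its 2 clusters were not alike. The brighter, 10408475, gave -0.47 and -0.32 on the late Smurf2-null C57B6 and mixed BL arrays, while the dim cluster 10408477 gave 0.00 and 0.08 there. On 10408477 the early values were -0.0045 in Smurf2-null C57B6 and -0.0004 in wild-type mixed BL. On this cluster alone the early and late arrays thus overlapped, and the Smurf2-null C57B6 pair was not lower late.

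E2f2 stood at -0.12 to 0.01 on the early arrays. Its late values were 0.50 in Smurf2-null C57B6, 0.41 in Smurf2-null mixed BL, 0.18 in wild-type mixed BL and -0.02 in wild-type C57B6. Both Smurf2-null late arrays were above both wild-type late arrays, and the wild-type C57B6 pair showed no rise. The E2f2 late minus early interval was 0.03 to 0.58 (adjusted p = 0.258).

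E2f1, the best known of the activators, was lower late in 4 of 4 pairs, but the size came from 1 of them. The differences were -0.06, -0.07 and -0.08 in 3 pairs and -0.68 in wild-type mixed BL, whose late array stood at -0.62, the lowest of the 8. With E2f3 and Rb1, E2f1 made 3 of 10 members that were lower late in every pair, a pattern that 11.9% of all genes showed; none was higher in every pair, against 15.1% of all genes.

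The repressors E2f4 and E2f5 and the atypical E2f7 and E2f8 had positive late minus early differences on average, but each had pairs of both signs. E2f4, the most abundant E2F of many resting cells, differed by 0.11 ± 0.09 (SE), and E2f5 by 0.08 ± 0.14 (SE). E2f8 differed by 1.35 in Smurf2-null C57B6 and by -0.17 to -0.36 in the other 3 pairs, giving a mean of 0.15 ± 0.31 (SE). E2f7 was 0.67 higher late in Smurf2-null C57B6 and 0.34 higher in wild-type C57B6, with differences of -0.07 and -0.03 in mixed BL and a mean of 0.23 ± 0.17 (SE). Over the 10 members, 6 late minus early differences were positive with a median of 0.09, beside 57.5% positive and a median of 0.03 over all genes. Without the late Smurf2-null C57B6 array 4 were positive and the median was -0.09.

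The second question was whether the loss of Smurf2 went with a difference in these genes. Wild-type and Smurf2-null arrays were compared with background and passage class held in the model. Rb1 was 0.38 ± 0.14 (SE) lower on the Smurf2-null arrays, a fold of 1.30 with an interval of -0.73 to -0.03. E2f4 was 0.24 ± 0.09 (SE) higher, a fold of 1.18 with an interval of 0.01 to 0.47. No member passed the limma test (adjusted p from 0.651 for E2f4 and Rb1 to 0.912 for E2f3), while 0.0286% of all genes did. The 5 genes that passed were Smurf2 itself and the sex-linked Xist, Uty, Kdm5d and Eif2s3y. Of the members, Rb1 and E2f4 were past an unadjusted p of 0.05, against 7.55% of all genes.

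**Figure D3:**
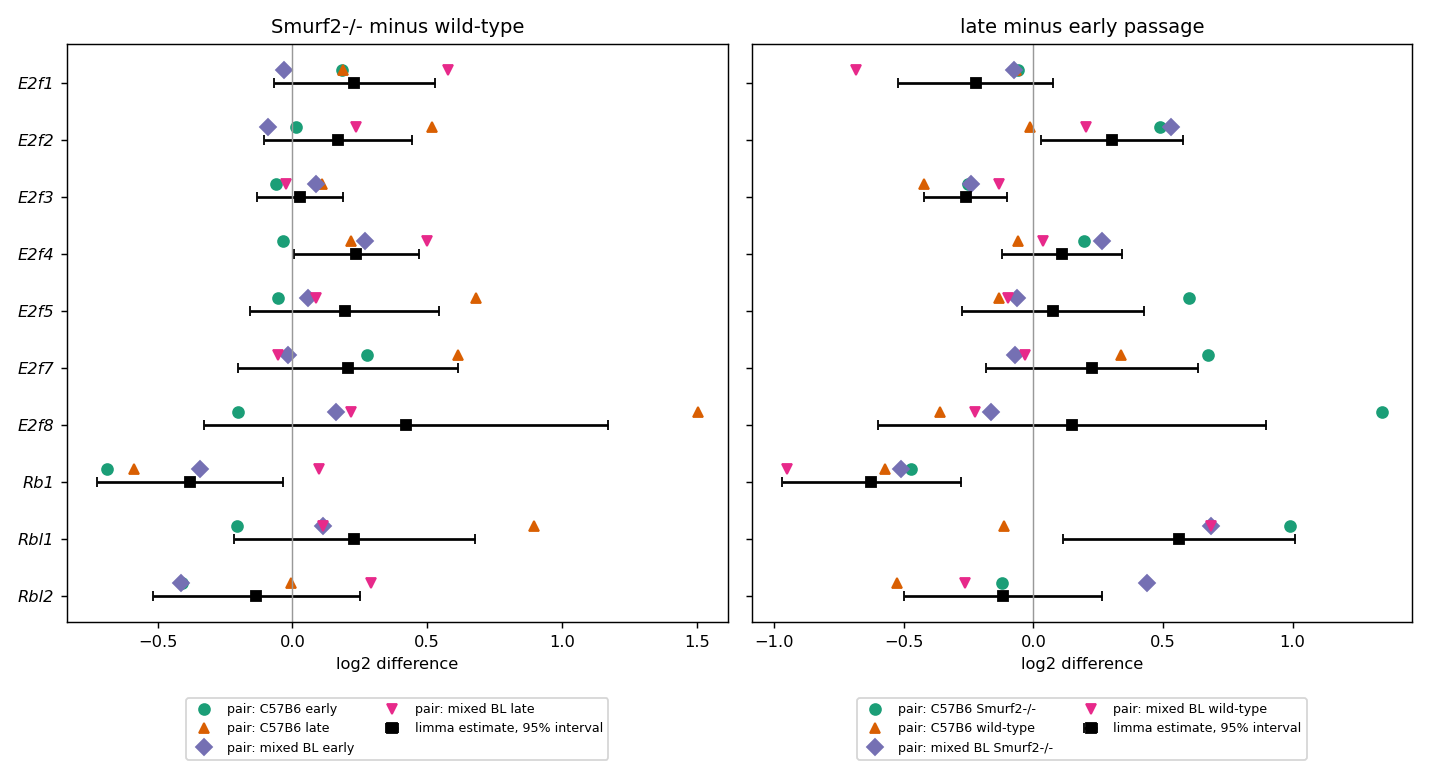
Differences of the 10 members on the log2 scale, Smurf2-null minus wild-type and late minus early, as the fitted value with its 95% interval and the 4 paired differences as points. Rb1 at -0.38 and E2f4 at 0.24 are the members whose genotype interval leaves out 0.

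For Rb1, the Smurf2-null minus wild-type difference was -0.69 in early C57B6, -0.59 in late C57B6, -0.34 in early mixed BL and 0.10 in late mixed BL. It was thus lower in 3 of 4 pairs, and the late mixed BL pair differed the other way. The genotype means were 0.13 ± 0.53 (SD, n = 4) for wild-type and -0.25 ± 0.28 (SD, n = 4) for Smurf2-null, and the groups overlapped. For E2f4 the pair differences were -0.04, 0.22, 0.27 and 0.50 in the same order. Its wild-type arrays ran from -0.06 to 0.02 and its Smurf2-null arrays from -0.02 to 0.47, with only the early C57B6 array inside the wild-type range.

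E2f8 had the largest genotype difference of the family, 0.42, and the widest error, 0.31 (SE). Its 4 Smurf2-null arrays held -0.14, 1.21, 0.16 and -0.0026, and its wild-type arrays -0.29, -0.22, 0.0026 and 0.07. The value of 1.21, on the late C57B6 array, set the difference, which was 0.06 without that array. E2f7 had the same high array, at 0.66, and pair differences of 0.28, 0.61, -0.02 and -0.05 (C57B6 early, C57B6 late, mixed BL early, mixed BL late). E2f5 had 0.53 on that array, and between -0.15 and 0.08 on all others. E2f1 was 0.23 ± 0.12 (SE) higher, E2f2 0.17 ± 0.11, Rbl1 0.23 ± 0.18, and E2f3 0.03 ± 0.07, while Rbl2 was 0.14 ± 0.16 lower. Most of these values moved by over 1.5 times when 1 array was left out. Without the late Smurf2-null C57B6 array E2f5 differed by 0.03, E2f7 by 0.03, E2f2 by 0.10 and Rbl1 by 0.09. Without the late wild-type C57B6 array E2f2 differed by 0.07, Rbl1 by 0.03, E2f5 by 0.11 and E2f3 by -0.01. With late wild-type mixed BL left out E2f1 differed by 0.10, and Rbl2 by -0.01 without the early array of either wild-type C57B6 or Smurf2-null mixed BL.

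In all, 8 of 10 members were higher and 2 lower on the Smurf2-null arrays, with a median of 0.20, beside 55.5% higher and a median of 0.02 over all genes. Without the late Smurf2-null C57B6 array the count stayed at 8 and the median was 0.05. No member kept its genotype direction in all 4 pairs, against 11% of all genes that were higher and 9.35% that were lower in each. Nor did the genotype groups of any member stand apart, against 1.14% of genes higher and 1.02% lower.

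Genotype was then set against passage, with 2 arrays against 2 in each passage class. In late passage 9 of 10 members were higher in Smurf2-null cells, with a median of 0.37, beside 56.2% of all genes. Without the late Smurf2-null C57B6 array 8 were, with a median of 0.26, beside 42.1% of all genes. That fit holds only 1 late Smurf2-null array, the mixed BL one. In early passage 5 of 10 were higher, with a median of -0.01, beside 50.7% of all genes. In late passage E2f2 was 0.38 ± 0.11 (SE) higher, with an interval of 0.09 to 0.67 (adjusted p = 0.265), and E2f4 0.36 ± 0.12 higher, with an interval of 0.04 to 0.68 (adjusted p = 0.332). E2f8 was 0.86 ± 0.38 higher, from pairs of 1.503 in C57B6 and 0.22 in mixed BL. Rbl1 was 0.51 ± 0.22 higher, from pairs of 0.90 and 0.11, so both values rest mainly on the late Smurf2-null C57B6 array against its wild-type partner. In early passage the largest differences were in the pocket proteins Rb1, -0.51 ± 0.20 (SE), and Rbl2, -0.41 ± 0.17. No member passed the test in late passage, nor did any of all genes (0%), while 2 members and 13.4% of genes were past an unadjusted p of 0.05. In early passage the shares of genes were 0.00571% adjusted and 1.09% unadjusted, with no member in either.

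The difference of these differences was itself fitted as an interaction. It was positive in 10 of 10 members, with a median of 0.35, beside 54.1% of all genes and a median of 0.02. Without the late Smurf2-null C57B6 array it was positive in 9 of 10, with a median of 0.35, beside 42.8% of all genes. This too rests on 1 late Smurf2-null array, from mixed BL. E2f2 had 0.42 ± 0.16 (SE), with an interval of 0.01 to 0.82 (adjusted p = 0.914). Rbl2 had 0.55 ± 0.24 (adjusted p = 0.948) and E2f8 0.88 ± 0.53, with an interval of -0.49 to 2.26. No member passed, and neither did any gene (0%); 1 member and 5.35% of genes were past an unadjusted p of 0.05. The members share the same 8 arrays, so their common sign is not 10 separate observations.

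Within Smurf2-null cells Rbl1 was 0.84 ± 0.22 (SE) higher late and E2f2 0.51 ± 0.11 higher (adjusted p = 0.211 and 0.172). Within wild-type cells Rb1 was 0.76 ± 0.20 lower late and E2f3 0.28 ± 0.10 lower (adjusted p = 0.597 and 0.678). No member or gene passed within either genotype (0% and 0%). At an unadjusted p of 0.05, 2 members were past it in each, against 14.8% of genes in Smurf2-null cells and 7.25% in wild-type cells. Of the 10 members, 7 were higher late in Smurf2-null cells and 3 in wild-type cells, beside 57.8% and 53.9% of all genes. The first count was 4 without the late Smurf2-null C57B6 array, beside 46.9%, with 1 late Smurf2-null array left.

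Genetic background gave differences in both directions. Mixed BL minus C57B6 differences ran from -0.23 ± 0.31 (SE) for E2f8 and -0.22 ± 0.14 for Rb1 to 0.10 ± 0.07 for E2f3 and 0.12 ± 0.09 for E2f4. Of the 10, 3 were positive, beside 51.7% of all genes; without the late Smurf2-null C57B6 array 7 were, beside 60.1%. No member passed (adjusted p from 0.593 to 0.994), against 0.08% of all genes, and none was past an unadjusted p of 0.05, against 13.5%. No member's backgrounds stood apart, against 3.02% of genes higher and 2.89% lower. The interactions of background with genotype and with passage gave no call among members or genes (0% and 0%), and no member at an unadjusted p of 0.05, against 3.18% and 9.19% of genes.

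The rest of the pathway was read from lists of named genes. Fitted over all arrays, none of their genes passed the test for genotype or passage (0 called in either direction in each list). Within mixed BL, 2 arrays against 2, 1 of the 6 CDK inhibitors passed the test for passage and was higher late (limma adjusted p = 0.0378). No member passed in that comparison, against 0.486% of all genes. Within C57B6 no gene passed for passage (0%). Upstream of Rb, 9 of 11 kinases and cyclins were lower late, with a median of -0.38, and 4 were past an unadjusted p of 0.05. Over all genes the late minus early median was 0.03, 57.5% were higher late and 17.3% were past that p. Ccnd3 and Ccnd2, the D-type cyclins that open Rb phosphorylation, were 0.42 ± 0.08 (SE) and 0.48 ± 0.10 lower late (adjusted p = 0.122 and 0.126). Ccne1, the cyclin E that follows them, was 0.54 ± 0.18 higher in Smurf2-null cells. Among 6 CDK inhibitors, 4 were higher and 2 lower late: Cdkn1b, the gene of p27, was 0.66 ± 0.14 higher (adjusted p = 0.135), and Cdkn1c, the gene of p57, 1.14 ± 0.30 lower (adjusted p = 0.168).

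The list of E2F partners and subunits of MuvB, the complex that carries p107 or p130 in quiescence, also counted Mybl2 and Foxm1. Of its 10 genes, 8 were higher late (median 0.18) and 5 were higher in Smurf2-null cells (median 0.14). Within Smurf2-null cells 9 were higher late (median 0.42), beside 57.8% of all genes. Within wild-type cells 5 were (median -0.04), beside 53.9%. E2f6, a repressor E2F that does not bind pocket proteins and was counted in this list, was 1.01 ± 0.17 (SE) lower late (adjusted p = 0.113) and 0.58 ± 0.17 lower in Smurf2-null cells. Its early arrays ran from 0.05 to 0.94 and its late arrays from -1.05 to -0.05, with no overlap, as for 4.59% of all genes. E2f6 was named for a large difference of 1 sign in all pairs, so the lack of overlap is not a separate result. Among 8 Rb co-repressors, 3 were higher late, and Arid4a, which binds pRb, was 0.45 ± 0.11 lower. Among 7 ubiquitin ligase subunits, 5 were higher late, with Skp2, which targets p27, at 0.43 ± 0.12. Over all genes 57.5% were higher late. Without the late Smurf2-null C57B6 array 3 of these subunits were higher late, with a median of -0.05, beside 52.4% of all genes. Of the genes in the partner and MuvB list 8 then were, and of the co-repressors 2.

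Downstream, 28 of 29 measured G1/S target genes were higher in Smurf2-null cells, with a median of 0.43, and 5 were past an unadjusted p of 0.05. Over all genes 55.5% were higher, the median was 0.02 and 7.55% were past that p. By pair their median difference was 1.18 in late C57B6, 0.25 in late mixed BL, 0.12 in early mixed BL and 0.07 in early C57B6. Without the late Smurf2-null C57B6 array 26 were higher and the median was 0.15, beside 46.4% of all genes higher. Cdt1, which licenses replication origins, was 0.65 higher in Smurf2-null cells, and Uhrf1, which maintains DNA methylation, 0.64. Late in passage 25 of 29 were higher, with a median of 0.31, beside 57.5% of all genes. Without that array 20 were, with a median of 0.08, beside 52.4%. Within Smurf2-null cells 26 of 29 were higher late, with a median of 0.56, beside 57.8% of all genes. Without that array, which leaves 1 late Smurf2-null array, 20 were, with a median of 0.21, beside 46.9%. Within wild-type cells 14 of 29 were higher late, with a median of -0.0025, beside 53.9%. Of 19 G2/M genes, 19 were higher in Smurf2-null cells (median 0.48, and 0.29 without the array) and 19 late (median 0.39, and 0.21 without it). Their median genotype difference was 0.12 in early C57B6, 0.04 in early mixed BL, 1.07 in late C57B6 and 0.73 in late mixed BL. Within Smurf2-null cells 19 were higher late (median 0.82, and 0.53 without the array), and within wild-type cells 10 (median 0.006).

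**Figure D4:**
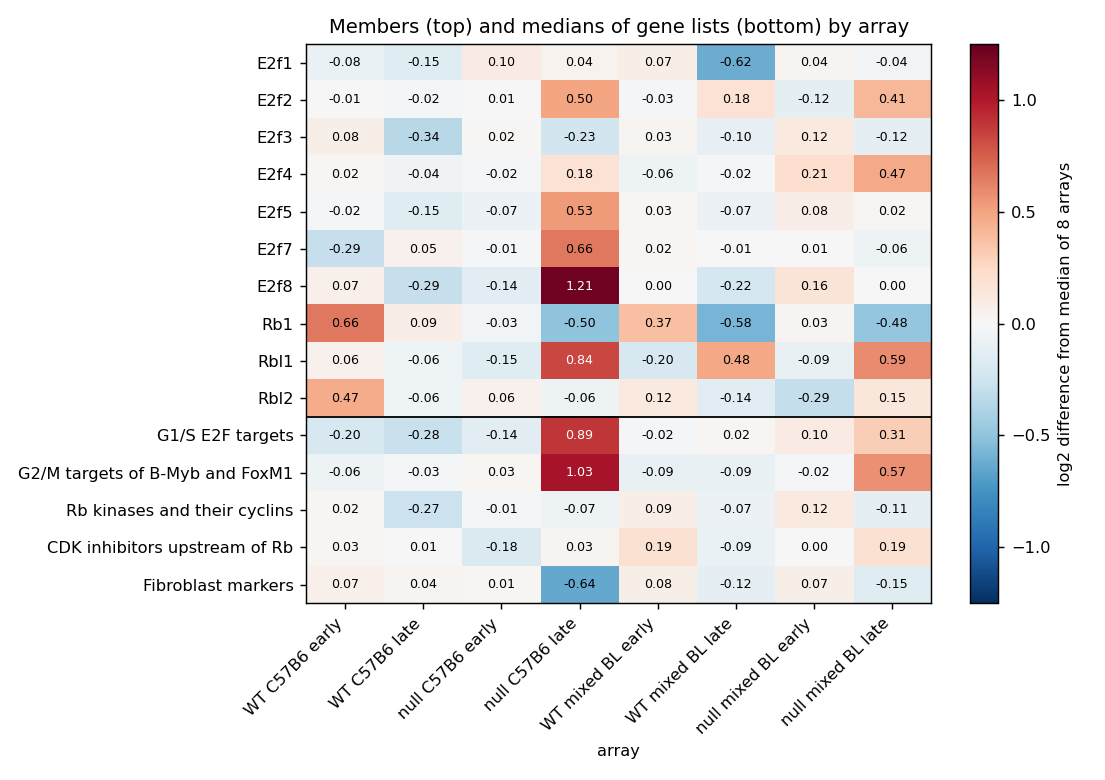
Log2 values of the 10 members (rows) on the 8 arrays (columns), relative to each gene's median, with the pathway list medians below. The late Smurf2-null C57B6 column holds the highest values of E2f8, 1.21, and of the G1/S median, 0.89, and a Rb1 value of -0.50.

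Across the 8 arrays, which share cultures, backgrounds and passage classes, pairs of members varied together as follows, given as Pearson r without a test. Rb1 and Rbl1 had r = -0.77, or -0.73 over 7 arrays without the late Smurf2-null C57B6 one. E2f2 and Rbl1 had r = 0.95, or 0.91. E2f5 and E2f8 had r = 0.99, or 0.93. E2f7 and E2f8 had r = 0.82, but -0.41 over 7 arrays, so this pair varied together through that array. Against the G1/S median, E2f5 had r = 0.93, E2f8 0.89, E2f2 0.83 and Rbl1 0.81, which became 0.67, 0.44, 0.66 and 0.62 over 7 arrays. Rb1 had -0.63 and -0.61 over 8 and 7 arrays, E2f1 0.18 and -0.003, and E2f3 -0.27 and 0.20. E2f7 had 0.83 and 0.13, and Rbl2 -0.26 and -0.23. E2f4 had 0.57 over 8 arrays and 0.835 over 7, the highest of the members over 7.

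In spread over the arrays, E2f8 had an SD of 0.47, Rb1 0.44 and Rbl1 0.40, which lay at percentiles 89.7, 88.0 and 85.0 of all genes. E2f3, at 0.16, lay at percentile 44.1, and the median SD of all genes was 0.18. Among 8742 genes searched, the one most like E2f8 over the 8 arrays was Tk1, a thymidine kinase of S phase, with r = 0.98, or 0.86 without the late Smurf2-null C57B6 array. Rb1 was most like Rrnad1, with r = 0.97, E2f1 most like Lypla2, with r = 0.97, and Rbl2 most like Osgin2, with r = 0.89. With 8 arrays and this many genes searched, such values describe these arrays only.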

How the data were processed

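The 8 arrays were read as the deposited log2 values, which the authors centred per cluster (the largest row median is 5e-07, from the values); no source used here gives the normalization or background correction, and genome builds mm8 and mm9 are named per the submitters' processing notes. The series text names an exon array, while the probe set identifiers matched a gene-level annotation, which gave 1 symbol to 19134 of 24169 clusters, several to 1230 and none to 3805. Symbols were updated through RefSeq (GRCm38.p6).

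Cluster values were averaged per gene (17501 genes) and fitted in limma 3.58.1 (R 4.3.3) with lmFit and eBayes, on genotype, background and passage class, or with 1 interaction added; p-values were adjusted by Benjamini-Hochberg over all genes, and 0.05 was the threshold. The number that ends each title marks the passage class, so this class is the replicate block, and it was in the model. The code was tested on simulated data with 1 common spread and genotype differences larger than any fitted for a member. How often differences of the members' size would be called was not tested. The members and lists were chosen with earlier results of these data known. Genes named from a list were taken from the 3 with the largest difference among those of 1 sign in all 4 matched pairs, for genotype or passage; genes of like pattern had the highest correlation among genes of at least median SD. Which cluster of a gene is brighter was told only coarsely, from the rounding step of the values. Alternatives covered array scaling, cluster choice, filters, the model and leaving out each array. Clusters with several symbols or none were left out.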

Additional observations from a re-analysis of the deposited data

Results flagged for a closer look

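In 5 of 40 groups of 4 arrays tested over the members, 1 array lay far from the other 3, by a gap of most of the group's range (Dixon's test). Chance flags about 1 in 20 groups where the groups are separate and their arrays alike. Here each value sat in both a genotype group and a passage group, and each group mixed backgrounds. The 5 flags therefore cannot be set against that rate. E2f7 on the late Smurf2-null C57B6 array was 0.66, far above both the other Smurf2-null arrays and the other late arrays. E2f7 on the early wild-type C57B6 array was -0.29, far below the other early arrays. Rb1 on the late wild-type C57B6 array was 0.087, far above the other late arrays. E2f2 on the late wild-type mixed BL array was 0.18, far above the other wild-type arrays. What set these values was not tested.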

How the results depend on the processing

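No member passed the test for genotype, passage, background or genotype by passage under any alternative run. The count of all genes called, 5 for genotype, 3 for passage and 14 for background, did depend on the processing. For genotype it was 3 with a variance trend, 0 after quantile normalization, 0 after array median centring, 2 with the cluster of largest SD per gene, 3 with each cluster tested alone, 0 with all pairwise interactions, and 0 to 1 with an array left out. For passage it was 25 with the trend, 0 after median centring, 29 after a filter on low SD, 0 with clusters alone, 0 with the culture as a block, 0 with all pairwise interactions, and 0 to 2 with an array left out. For background it was 28 with the trend, 1 after quantile normalization, 7 after median centring, 29 with the cluster of largest SD, 66 with clusters alone, and 1 to 21 with an array left out. Without the replicate block the genotype count was 4. With cluster 10408475 alone, which is also the one of larger SD, the E2f3 genotype difference was -0.085 and its genotype by passage value -0.22, both of turned sign; after quantile normalization the Rbl1 background difference was -0.0053. With an array left out, signs turned for E2f3 genotype (-0.0105 to 0.069); for passage in E2f5 (-0.085 to 0.16), E2f8 (-0.21 to 0.33) and Rbl2 (-0.27 to 0.0032); for background in E2f1 (-0.22 to 0.0116), E2f2 (-0.11 to 0.076), E2f5 (-0.16 to 0.10), E2f7 (-0.24 to 0.059), E2f8 (-0.47 to 0.13) and Rbl1 (-0.18 to 0.16); and for genotype by passage in E2f3 (-0.07 to 0.13), E2f7 (-0.26 to 0.56) and Rb1 (-0.028 to 0.57). The cause was not tested. Over all settings the passage difference stayed between -0.73 and -0.48 for Rb1 and between 0.43 and 0.76 for Rbl1. Signal over background is not given for these arrays, so dim probes could not be set aside.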
